A study of Mus musculus with 7 samples.

Results

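The 9 genes described here, Fmo1, Fmo2, Fmo5, Cyp2b10, Cyp2f2, Cbr2, Aox3, Aldh1a1 and Abcc3, encode enzymes and a transporter that handle foreign chemicals and reactive aldehydes in the airway. They were taken by gene symbol from the gene matrices of 4 mice, in all of which they were listed, and they are 9 of 56941 listed genes, of which 37700 had at least 1 count. Each was read as RNA in single nuclei and is given for tumor-like, club-like, alveolar, endothelial-like and stromal-like nuclei of every animal. The nuclei came from lung tumors of male mice in an autochthonous model of small-cell lung cancer (SCLC).

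All 4 mice carried Rb1 fl/fl and Trp53 fl/fl and inhaled an adenovirus that carries Cre, so that both tumor suppressors are deleted in the cells that take it up. The RP1 and RP2 animals had no further allele, and the RPC1 and RPC2 animals also carried Casp8, which the labels write as Casp8-/- and the study's methods describe as a conditional allele. Cre was driven by the CMV promoter, which is not limited to one cell type, and per the study's methods the mice inhaled the virus as young adults, while the age of these 4 at collection is not given in the sources used here. Tumors were taken at the endpoint, and each animal is 1 sample, so that RP against RPC is a comparison of 2 animals with 2. The 7 sequenced libraries each pooled nuclei of all 4 animals, and no cell barcode was shared between the animals' matrices.

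Airway xenobiotic metabolism runs in steps. Cytochrome P450 enzymes and flavin-containing monooxygenases oxidize lipophilic or nitrogen- and sulfur-containing compounds, and carbonyl reductases, aldehyde oxidases and aldehyde dehydrogenases act on the carbonyl groups that arise on the way. Conjugating enzymes then attach a polar group, and ABC transporters move the product out of the cell. In the mouse lung, club cells, the secretory cells of the conducting airway, are known as the main site of P450 activity, which is why some lung toxicants injure them first.

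With the study's limits applied here, 38254 of 38353 nuclei were kept, a few more than the study states for some of the animals, with 8363, 8874, 10853 and 10164 in RP1, RP2, RPC1 and RPC2 (values of the 4 animals are given in this order throughout). Their median depth was 2255, 2223, 3392 and 2767 transcripts, higher in the RPC animals. The precision of a level rests on the transcript total of its class, which was not higher in RPC for every class. In alveolar type 1-like nuclei, for example, the totals were 126527, 304125, 139701 and 865794 transcripts. Classes were set from clusters and marker lists, with the 9 genes and 98 genes of their pathways, which include them, kept out of the clustering. A name ending in "-like", other than tumor-like, means that the median marker of that list was higher in the cluster than in all other nuclei. Tumor-like clusters had no such list raised and had neuroendocrine markers above the median of the named clusters. The club-like class held 19, 100, 698 and 110 nuclei, the alveolar type 2-like class 44, 201, 77 and 182, the alveolar type 1-like class 32, 60, 24 and 116, the endothelial-like class 92, 155, 91 and 174 and the stromal-like class 104, 125, 83 and 130, beside 6985 to 9160 tumor-like nuclei per animal. Levels are given as CPM, the counts of a gene scaled to the transcript total of that class in that animal. Fewer nuclei with a gene and less of its RNA per nucleus cannot be told apart in a summed level of this kind.

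3 of these classes mixed clusters of very different depth. Of the club-like nuclei, 437 lay in a cluster of usual depth (17, 85, 248 and 87) and 490 in a cluster about 4.05 times deeper than the animals' medians, of which 450 came from RPC1. The alveolar type 2-like class likewise held a cluster of 210 nuclei of usual depth and one of 294 nuclei at 7.22 times the medians. In the endothelial-like class 291 nuclei lay in the main cluster of usual depth and 176 in one at 3.31 times the medians. Values for the clusters of usual depth are therefore given beside those of the class for the results that turn on them. Neuroendocrine marker RNA was found in every class: 15 such genes summed to 3513, 3332, 4257 and 4158 CPM in tumor-like nuclei and still to 799, 805, 796 and 850 CPM in the usual-depth club-like cluster. Casp8 was read at 57.0, 60.5, 91.6 and 67.0 CPM in tumor-like nuclei, and because the counts cover the whole gene they do not check the genotype labels.

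Fmo1 and Fmo2 lie side by side on the minus strand of chromosome 1, at chr1:162655471-162694185 and chr1:162701873-162726295 of GRCm39, 7.7 kb apart with 0 protein-coding genes between them. Aox3 lies on the same chromosome, at chr1:58152289-58241493, 592.9 kb from Casp8 with 11 protein-coding genes between. Cyp2b10 (chr7:25597045-25626049) and Cyp2f2 (chr7:26819322-26833090) are both on the plus strand of chromosome 7. Cbr2 is at chr11:120620312-120622940, Abcc3 at chr11:94233874-94283823, Fmo5 at chr3:97531564-97562598 and Aldh1a1 at chr19:20469539-20622825. The start regions of 4 of them are shown because the results turn on their patterns: Cyp2f2 and Cbr2 were, of the 9, closest to each other across cell classes, Fmo2 differed between the genotypes, and Cyp2b10 was highest in alveolar cells. Each runs 5′ to 3′ from 250 bases before to 50 bases after the start of the gene's Ensembl canonical transcript on GRCm39. Matches to the searched motifs are in capitals.
Cyp2f2 (chr7:26819073-26819372, plus strand): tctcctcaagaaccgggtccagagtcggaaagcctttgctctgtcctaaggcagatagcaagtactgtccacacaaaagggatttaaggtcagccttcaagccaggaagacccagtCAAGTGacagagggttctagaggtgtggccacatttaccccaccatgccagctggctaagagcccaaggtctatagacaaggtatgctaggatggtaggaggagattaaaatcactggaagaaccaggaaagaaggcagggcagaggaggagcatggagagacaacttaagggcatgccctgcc
Cbr2 (chr11:120622891-120623190, minus strand): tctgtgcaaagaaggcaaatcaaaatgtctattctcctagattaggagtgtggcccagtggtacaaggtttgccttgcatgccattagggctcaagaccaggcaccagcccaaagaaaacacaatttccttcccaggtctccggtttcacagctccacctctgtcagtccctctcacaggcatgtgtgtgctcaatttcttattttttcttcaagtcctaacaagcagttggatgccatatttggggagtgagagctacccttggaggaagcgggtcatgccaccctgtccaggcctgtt
Fmo2 (chr1:162726185-162726484, minus strand): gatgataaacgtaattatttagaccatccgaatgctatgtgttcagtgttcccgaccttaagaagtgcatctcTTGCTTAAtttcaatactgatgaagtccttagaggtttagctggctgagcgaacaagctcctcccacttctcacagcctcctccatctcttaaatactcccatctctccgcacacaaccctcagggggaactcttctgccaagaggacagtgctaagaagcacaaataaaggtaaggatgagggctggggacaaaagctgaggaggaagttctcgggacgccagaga
Cyp2b10 (chr7:25596795-25597094, plus strand): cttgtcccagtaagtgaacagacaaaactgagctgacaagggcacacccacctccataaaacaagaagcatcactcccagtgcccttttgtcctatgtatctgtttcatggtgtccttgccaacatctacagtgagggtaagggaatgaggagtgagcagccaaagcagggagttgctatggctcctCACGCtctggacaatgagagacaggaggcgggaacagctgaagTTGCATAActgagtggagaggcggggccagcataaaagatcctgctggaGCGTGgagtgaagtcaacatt
5 motifs were searched on both strands in the start regions of all 9 genes and of 21770 genes. CAAGTG, the core bound by NKX2 factors, was in 1 of the 9 (Cyp2f2) and in 14.3% of all start regions. TTGCNNAA, a C/EBP motif, was in 2 (Fmo2 and Cyp2b10) against 10.7%, and GCGTG, the core of the xenobiotic response element, was in 3 (Fmo5, Cyp2b10 and Aox3) against 37.0%. TGTTTAC, a FOXA motif, and TGACNNNGC, the core of the antioxidant response element, were in 0 of the 9 against 3.1% and 12.5%. The letters that Cyp2f2 holds were thus not in the start region of Cbr2, although these 2 had the most similar profiles of the 9 genes, and a match or its lack is a description of these windows alone.

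6 of the 9 genes had their highest mean level over the 4 animals in club-like nuclei (Fmo1, Fmo2, Cyp2f2, Cbr2, Aox3 and Abcc3). Cyp2b10 and Fmo5 were highest in alveolar type 1-like nuclei and Aldh1a1 in stromal-like nuclei. All 9 were lower in tumor-like nuclei than in the class where they were highest. Tumor-like nuclei were not the lowest class for each gene. The tumor-like mean of Aldh1a1 (20.8 CPM) was above its alveolar type 1-like, endothelial-like and macrophage-like means (10.7, 15.5 and 11.9 CPM). These levels are descriptions, with no test between classes, because the classes were cut from the same nuclei. When counts were first summed over the animals, which gives RPC1 most weight in the club-like class, Cbr2 was highest in ciliated-like and Abcc3 in macrophage-like nuclei. Abcc3 was also highest in macrophage-like nuclei without the deep nuclei, and with the pathway genes in the clustering, where Aox3 was highest in alveolar type 2-like nuclei.

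**Figure D1:**
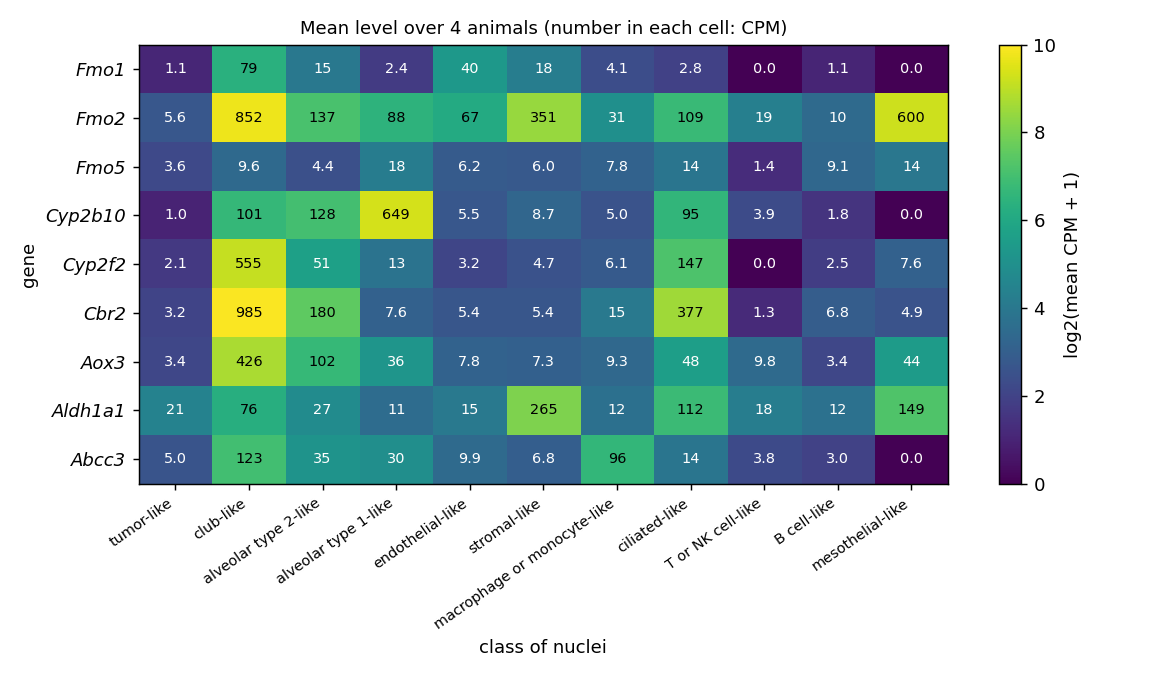
Mean level of the 9 genes (rows) in 11 classes of nuclei (columns), with the color giving log2(mean CPM + 1) and the number in each cell the mean CPM over the 4 animals. Fmo2, Cbr2, Cyp2f2 and Aox3 peak in the club-like column, Cyp2b10 in the alveolar type 1-like column (649) and Aldh1a1 in the stromal-like column (265). The tumor-like column is below the highest column for every gene.

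Cyp2f2 encodes the P450 enzyme that makes club cells of the mouse sensitive to naphthalene and is widely used as a club cell marker. In club-like nuclei it was read at 1085, 469, 121 and 545 CPM, or 555 ± 399 (SD, n = 4). In the cluster of usual depth the values were 1325, 571, 499.9 and 913 CPM, while the deep cluster had only 81.1 CPM in RPC1. The low class value of RPC1 was thus that of its deep nuclei, and among nuclei of usual depth RP2 and RPC1 were close. Ciliated-like nuclei followed with 121, 143, 133 and 193 CPM, above alveolar type 2-like nuclei at 69.6, 70.2, 21.1 and 41.4 CPM, and those 2 ranges did not overlap. There were only 14, 33, 13 and 24 ciliated-like nuclei, none of them in a cluster of usual depth. Club cell markers summed to 635, 496, 616 and 1042 CPM in them, and the part of club cell RNA there was not tested. In the alveolar type 2-like cluster of usual depth Cyp2f2 had 0, 8, 0 and 6 counts, so that its alveolar signal came almost wholly from the deep cluster. Tumor-like nuclei had 1.18, 2.71, 2.73 and 1.94 CPM, and the mean in club-like nuclei was 259 times the tumor-like mean.

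Cyp2b10 encodes a P450 enzyme that is inducible in liver through the receptor CAR and is also present in lung. It was the alveolar gene of the group, with 435, 694, 902 and 567 CPM in alveolar type 1-like nuclei (649 ± 199, SD, n = 4). Every one of these animals was above every value of the next class, the alveolar type 2-like nuclei at 104, 81.0, 221 and 106 CPM. The alveolar type 2-like class again mixed 2 levels, however. Its cluster of usual depth had 432, 606, 1031 and 1147 CPM, as high as alveolar type 1-like nuclei, and its deep cluster had 46.4, 25.3, 22.5 and 61.0 CPM. With clusters of usual depth alone, Cyp2b10 was highest in alveolar type 2-like nuclei. Club-like nuclei had 77.5, 67.3, 13.9 and 243 CPM and tumor-like nuclei 0.442, 0.880, 1.01 and 1.70 CPM, which puts the alveolar type 1-like mean at 645 times the tumor-like one.

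Cbr2 encodes a lung carbonyl reductase that acts on aldehydes and ketones. Its levels in club-like nuclei were 1473, 805, 124 and 1539 CPM (985 ± 663, SD, n = 4), and 1831, 1037, 568 and 2285 CPM in the cluster of usual depth. RPC1 was lowest in both, and less so among nuclei of usual depth. Ciliated-like nuclei, few and with none of usual depth, had 257, 255, 218 and 777 CPM. Alveolar type 2-like nuclei had 244, 212, 92.0 and 173 CPM. Unlike Cyp2f2, Cbr2 was also read in the alveolar type 2-like cluster of usual depth, at 201, 529, 249 and 786 CPM. Below these came macrophage-like nuclei with a mean of 15.3 ± 8.35 CPM, whose range did not reach that of the alveolar type 2-like nuclei. The club-like mean was 311 times that of tumor-like nuclei (1.84, 3.63, 2.56 and 4.62 CPM).

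Aox3 encodes an aldehyde oxidase, a molybdenum enzyme that oxidizes aldehydes and nitrogen heterocycles. It was read at 512, 313, 109 and 771 CPM in club-like nuclei and at 584, 382, 426 and 1127 CPM in the cluster of usual depth. In the alveolar type 2-like class the levels were 78.9, 101, 105 and 123 CPM, and in its cluster of usual depth 232, 507, 387 and 807 CPM. The ranges of club-like and alveolar type 2-like nuclei overlapped both for the classes and for the clusters of usual depth. Tumor-like nuclei had 3.13, 3.52, 4.06 and 2.99 CPM.

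Fmo2 encodes the flavin-containing monooxygenase that is the main form in the lung of most mammals. It was read in airway, alveolar, stromal and mesothelial nuclei alike. Club-like nuclei had 667, 601, 625 and 1516 CPM (852 ± 444, SD, n = 4), and the cluster of usual depth had 838, 649, 2308 and 2129 CPM. Mesothelial-like nuclei, of which there were only 8 to 24 per animal, had 57.4, 983, 538 and 822 CPM. Stromal-like nuclei had 54.1, 215, 397 and 738 CPM and alveolar type 2-like nuclei 83.5, 106, 198 and 163 CPM. The ranges of neighbors in this order overlapped, those of club-like and mesothelial-like nuclei included, so the order is not firm, first place included. In RP2 mesothelial-like nuclei were above club-like nuclei. In tumor-like nuclei Fmo2 was at 1.66, 2.71, 9.74 and 8.42 CPM, and the club-like mean was 151 times the tumor-like mean.

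Fmo1, its neighbor on chromosome 1 and a monooxygenase best known in liver and kidney, was at 46.5, 129.9, 86.9 and 54.3 CPM in club-like nuclei, on 3, 56, 937 and 29 counts. Endothelial-like nuclei came next with 8.75, 25.6, 60.2 and 64.0 CPM, a range that overlapped the club-like one. Fmo5, an unusual member of the family that carries out Baeyer-Villiger oxidation, was low in every class. Its highest mean was 17.5 ± 8.84 CPM (SD, n = 4) in alveolar type 1-like nuclei, and the class in first place changed with the settings. Most of the Fmo5 counts of every animal, 73.7, 62.5, 66.7 and 64.4%, were in the abundant tumor-like nuclei, where its level was 3.20, 3.30, 4.93 and 2.95 CPM.

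Aldh1a1 encodes a retinaldehyde dehydrogenase that makes retinoic acid and also clears lipid aldehydes. It was the stromal gene of the group, at 99.2, 208, 341 and 410 CPM in stromal-like nuclei (265 ± 139, SD, n = 4). Mesothelial-like nuclei had 76.5, 87.4, 354 and 78.3 CPM and ciliated-like nuclei 57.0, 84.0, 118 and 189 CPM, both overlapping the stromal-like range. Club-like nuclei had 77.5, 65.0, 43.2 and 118 CPM, all above the alveolar type 2-like nuclei at 25.5, 19.0, 23.4 and 40.3 CPM. The contrast with tumor-like nuclei (10.6, 16.97, 29.0 and 26.7 CPM) was the smallest of the genes that peaked outside alveolar type 1-like nuclei, with a stromal-like mean 12.7 times the tumor-like one. Tumor-like nuclei were many, and they held 66.4, 56.8, 59.9 and 55.2% of all Aldh1a1 counts.

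Abcc3 encodes MRP3, an ABC transporter that exports glucuronides and other organic anions. It was at 139.6, 137, 75.4 and 140.4 CPM in club-like nuclei (123 ± 31.8, SD, n = 4) and at 68.6, 71.3, 124 and 122 CPM in macrophage-like nuclei, and the 2 ranges overlapped. Both were above alveolar type 2-like nuclei at 34.8, 28.4, 46.8 and 28.5 CPM. The tumor-like level was 2.84, 3.52, 6.57 and 7.19 CPM.

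**Figure D2:**
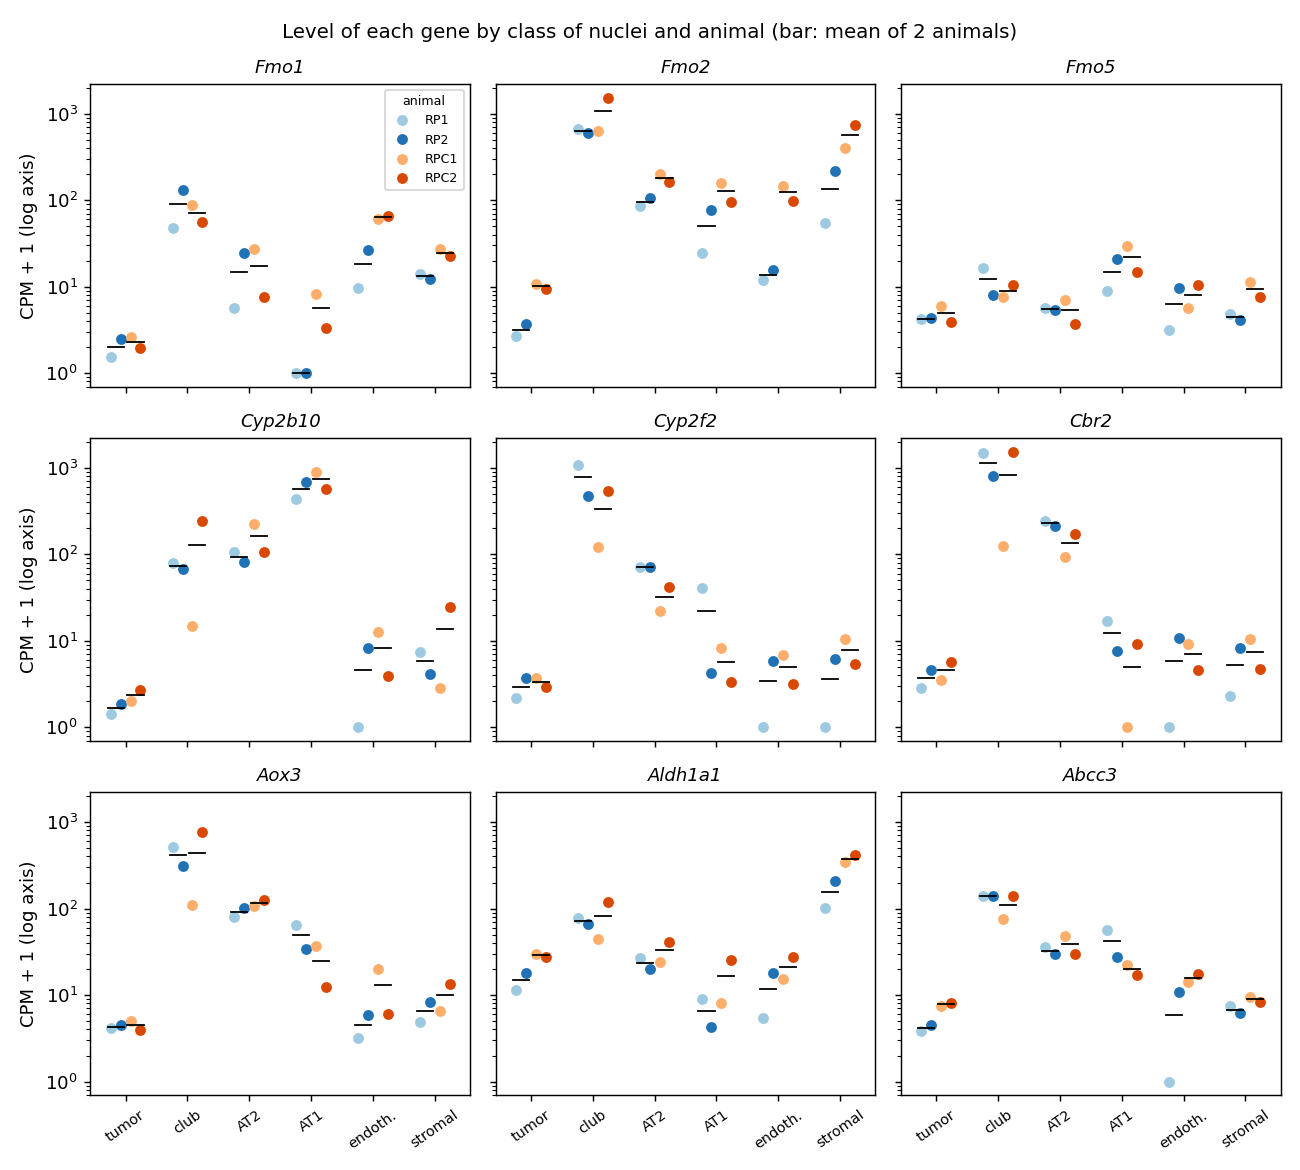
Level of each of the 9 genes (panels) in 6 classes of nuclei, with 1 point per animal (RP1, RP2, RPC1, RPC2), a bar at the mean of the 2 animals of a genotype, and CPM + 1 on a logarithmic axis. The animals of the 2 genotypes overlap for most genes and classes, while the Fmo2 points of RPC1 and RPC2 lie above both RP points in every class shown except the club-like one.

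Shares of nuclei with at least 1 count were compared after every nucleus was thinned to 1000 transcripts. Intervals on these shares cover counting error only. In the usual-depth club-like cluster Fmo2 was found in 53.3, 44.4, 81.0 and 74.4% of nuclei, Cbr2 in 86.7, 53.1, 30.0 and 76.8%, Cyp2f2 in 53.3, 39.5, 30.0 and 43.9% and Aox3 in 33.3, 32.1, 33.3 and 59.8%. Without thinning the Fmo2 shares were 73.3, 66.7, 96.6 and 90.2%. In tumor-like nuclei the thinned shares were 0.223, 0.263, 0.998 and 0.696% for Fmo2 and 0.128, 0.309, 0.211 and 0.269% for Cyp2f2, and shares this low cannot be told apart from RNA free in the suspension. Cbr2 was found in 0.191, 0.278, 0.244 and 0.476% of tumor-like nuclei.

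Several of the genes were found in the same nuclei. After thinning, 93.3, 85.2, 94.9 and 97.6% of nuclei in the usual-depth club-like cluster had at least 1 of the 9 genes and 60.0, 35.8, 41.4 and 67.1% had at least 3. Of 8190 thinned tumor-like nuclei of RPC2, 1 had at least 3, and in the other animals 0 had, although 2.58, 3.83, 5.52 and 5.202% had at least 1. Within the club-like cluster, Cbr2 was found in 68.8, 43.7 and 94.4% of the nuclei of RP2, RPC1 and RPC2 that had Cyp2f2, and in 42.9, 24.1 and 63.0% of those without it. Aox3 was found in 48.8, 40.8 and 69.8% of nuclei with Cbr2 and in 13.2, 30.1 and 26.3% of those without. The direction was the same in these 3 animals for both pairs, and RP1 had too few nuclei for the split. Cyp2b10 was likewise found in 14.0, 7.04 and 23.8% of nuclei with Cbr2, against 5.26, 4.22 and 0% without. Split by Cyp2f2, it was found in 15.6, 7.04 and 22.2% against 6.12, 4.22 and 15.2%. Fmo2 split by Cbr2 had the same direction, at 48.8, 84.5 and 74.6% against 39.5, 79.5 and 73.7%. Not every pair showed it in all of these animals. Abcc3 was found in 0, 16.9 and 22.2% of nuclei with Cyp2f2, against 8.16, 19.9 and 15.2% without. Fmo2 was found in 46.9, 88.7 and 72.2% of nuclei with Cyp2f2, against 42.9, 77.7 and 76.1% without. In the deep club-like cluster of RPC1, Cbr2 was found in 9.09% of nuclei with Cyp2f2 and in 9.61% of those without.

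**Figure D3:**
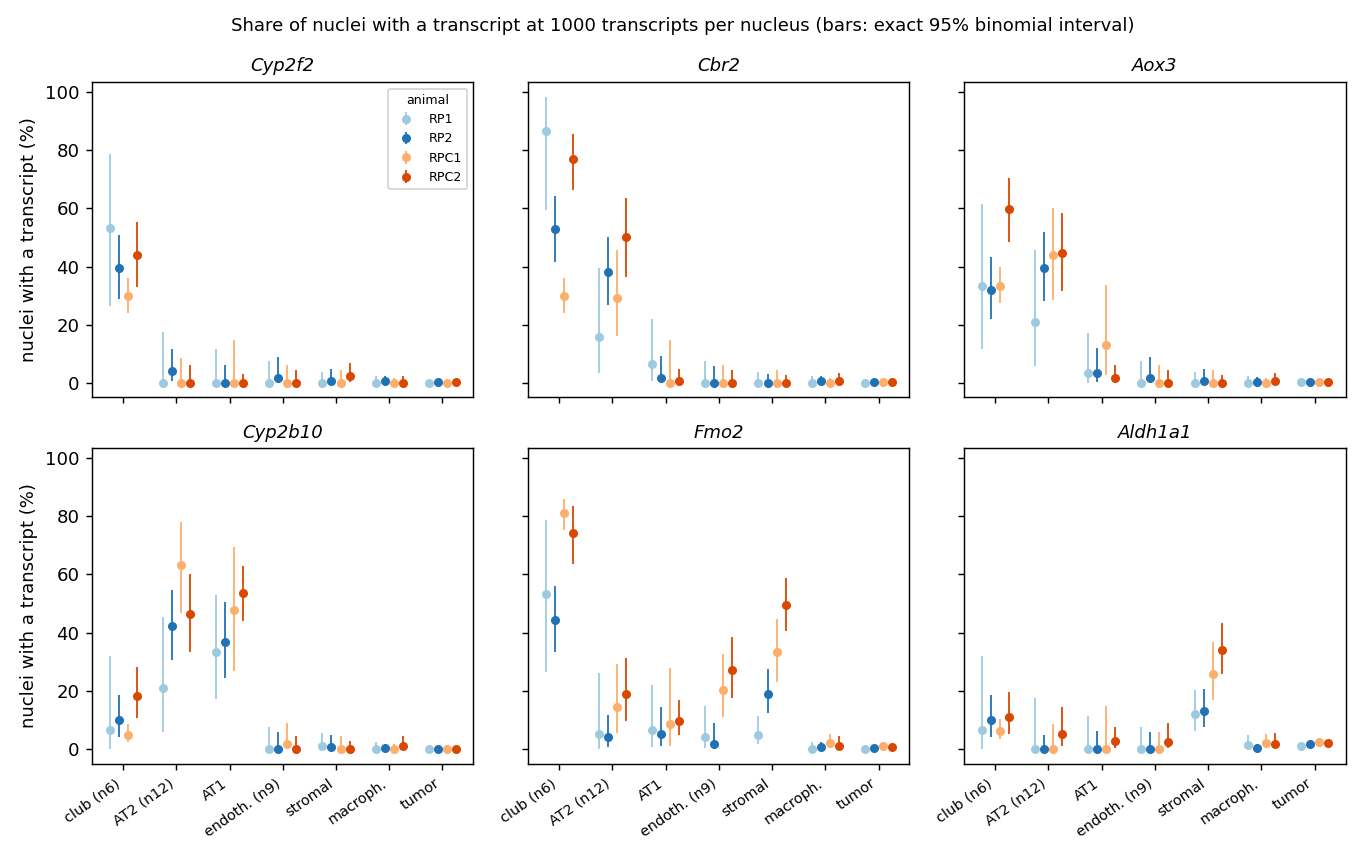
Share of nuclei (percent) with at least 1 count of 6 of the genes after thinning to 1000 transcripts, by class and animal, with exact 95% binomial intervals, where n6, n12 and n9 are the club-like, alveolar type 2-like and endothelial-like clusters of usual depth. Fmo2, Cbr2, Cyp2f2 and Aox3 reach about a 30.0% share or more of the club-like cluster in every animal, and all 6 genes stay low in tumor-like nuclei.

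Across 38 profiles of a class in an animal with at least 20 nuclei, likeness was measured as Pearson's r of log2(CPM + 5) among 12910 genes. The profiles share animals, depth and free RNA, and r is given as a description. Cyp2f2 and Cbr2 were each other's nearest gene (r = 0.94), followed by Clic6 (0.93) for Cyp2f2 and by Lpar3 (0.92) and Gclc (0.92) for Cbr2. Gclc encodes the catalytic subunit of the enzyme that limits glutathione synthesis. Aox3 reached 0.85 with Cyp2f2 and 0.79 with Cbr2, and its nearest genes were Bmpr1b (0.88) and Ppp2r2b (0.87). Aldh1a1 followed Vegfd (0.89), Lpar1 (0.86) and Wnt5a (0.79), and its r with Cyp2b10 was 0.07. Nearest to Cyp2b10 were 9530036O11Rik (0.95), Cecr2 (0.92) and Gramd2 (0.92), nearest to Fmo2 were 9530026P05Rik (0.89), Nfia (0.89) and Osmr (0.84), and nearest to Abcc3 was Acer3 (0.86). Fmo1 was most like Epas1 (0.82), which encodes the hypoxia factor HIF-2α, and Fmo5 had no gene above Gipc2 (0.68).

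Loss of Casp8 was the difference between the genotypes, and RPC was compared with RP within each class on counts summed per animal, with edgeR's quasi-likelihood test and Benjamini-Hochberg adjustment over all genes tested. The 4 animals are separate mice, and 2 against 2 leaves few degrees of freedom. The test was run in 6 of the 11 classes. In these, Fmo2 in endothelial-like nuclei was the 1 result of the 9 genes that passed. Fmo2 in macrophage-like nuclei, a class not tested, was at 3.81, 11.2, 66.6 and 41.2 CPM.

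In endothelial-like nuclei, Fmo2 was read at 10.9, 14.6, 146 and 97.5 CPM, on 5, 12, 124 and 134 counts. Both RPC animals were well above both RP animals. Fmo2 rose 8.63-fold in RPC (log2 fold change 3.11 ± 0.35 SE, adjusted p = 0.0167 by edgeR). It was 1 of 4 genes of the group tested here and 1 of 10 called among 9588 genes (0.104%). The result passed under every alternative run, with log2 fold changes of 2.84 to 3.35. In the endothelial-like cluster of usual depth the levels were 13.9, 38.3, 182 and 405 CPM, and the log2 fold change with usual-depth clusters alone was 3.28 (adjusted p = 0.0349). As a share of thinned nuclei, Fmo2 was found in 3 of 84 (3.57%, exact 95% interval 0.743 to 10.1), 1 of 119 (0.840%, 0.0213 to 4.59), 16 of 88 (18.2%, 10.8 to 27.8) and 25 of 153 (16.3%, 10.9 to 23.2), and unthinned in 5.95, 6.72, 42.0 and 33.3% at median depths of 3204.5, 3284, 4293.5 and 2658 transcripts.

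The endothelial-like nuclei had all 12 genes of the endothelial list, at a sum of 4458, 4253, 6466 and 4339 CPM. They also held RNA of other cells: the 15 neuroendocrine genes summed to 2437, 2454, 3252 and 3433 CPM, and 14 club cell genes to 19.7, 36.6, 217 and 48.8 CPM, with 4, 7, 12 and 9 of the 14 having a count. Scgb1a1, the main secretory protein of club cells, was at 4.37, 15.9, 70.9 and 32.7 CPM. Scgb1a1 and the club list were thus higher in both RPC animals than in both RP animals, as Fmo2 was, with RPC1 highest, and the part of club cell RNA in the Fmo2 result was not tested. Fmo2 counts per count of the club list were 0.556, 0.4, 0.674 and 2.00 in endothelial-like nuclei. These ratios rest on 9, 30, 184 and 67 counts of the list. In club-like nuclei the ratio was 0.117, 0.223, 0.540 and 0.558, and 0.122, 0.206, 0.600 and 0.506 in the cluster of usual depth. In stromal-like nuclei it was 2.21, 5.33, 3.24 and 15.2. The source of the Fmo2 RNA in endothelial-like nuclei was not tested.

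Fmo1 was also higher in both RPC animals in endothelial-like nuclei (8.75, 25.6, 60.2 and 64.0 CPM), with a log2 fold change of 1.65 ± 0.41 that did not pass (adjusted p = 0.197). Abcc3 had a log2 fold change of 1.25 ± 0.77 and Aldh1a1 of 0.73 ± 0.59, with adjusted p = 0.514 and 0.630. 3 of the 4 genes tested had both RPC animals above both RP animals, where 28% of all genes tested did. Thinned shares of Fmo1 were 1.19, 3.36, 12.5 and 13.7%.

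In tumor-like nuclei 0 of the 9 genes passed, and 0 of 20042 genes did (0%), with 1504 genes higher and 1549 lower at an unadjusted p under 0.05. Fmo2 had the largest difference of the group, at 1.66, 2.71, 9.74 and 8.42 CPM (45, 74, 513 and 377 counts), with a log2 fold change of 2.00 ± 0.34 and adjusted p = 0.263. Abcc3 (2.84, 3.52, 6.57 and 7.19 CPM) had 1.06 ± 0.28 with adjusted p = 0.280, and Aldh1a1 (10.6, 16.97, 29.0 and 26.7 CPM) had 0.96 ± 0.26 with adjusted p = 0.281. These 3 and Cyp2b10 (0.98 ± 0.51) had both RPC animals above both RP animals, 4 of 9 where 28.3% of all genes did. The log2 fold change was above 0 for all 9 and for 49.1% of all genes tested, with a median of 0.34 against -0.01 over all genes tested. For Aox3 (0.03 ± 0.31), Cyp2f2 (0.21 ± 0.49), Fmo5 (0.22 ± 0.35), Fmo1 (0.30 ± 0.59) and Cbr2 (0.34 ± 0.49) it was within its SE of 0. The genotypes overlapped for each of these genes. DESeq2 called 649 of 17413 genes (3.73%), among them Fmo2 (log2 fold change 2.04, adjusted p = 4.41e-05) and Abcc3 (1.099, adjusted p = 0.0365).

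The tumor-like difference in Fmo2 was seen in each sequenced library. Over the 7 sublibraries Fmo2 ranged from 1.18 to 2.69 CPM in RP1 and from 1.34 to 4.28 in RP2, and from 7.41 to 12.6 in RPC1 and from 6.46 to 10.4 in RPC2, with no overlap between genotypes. For Aldh1a1 the ranges were 8.93 to 11.5, 11.995 to 19.9, 26.4 to 32.6 and 25.0 to 30.0 CPM. These are repeated reads of the same animals and not further replicates. Among the 11 tumor-like clusters, Fmo2 was at 1.37 to 3.83 CPM in those led by an RP animal and at 7.59 to 15.5 CPM in those led by an RPC animal. The club list summed to 21.2, 49.96, 111 and 60.9 CPM in tumor-like nuclei, and Fmo2 per club-list count was 0.0780, 0.0543, 0.0880 and 0.138, below the ratio in club-like nuclei in every animal. The part of club cell RNA in the tumor-like difference was not tested.

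Stromal-like nuclei had Fmo2 at 54.1, 215, 397 and 738 CPM and Aldh1a1 at 99.2, 208, 341 and 410 CPM. Both RPC animals were above both RP animals for each, and the RP animals themselves were far apart. The log2 fold changes were 1.97 ± 0.58 for Fmo2, 1.19 ± 0.34 for Aldh1a1 and 0.86 ± 0.38 for Fmo1, with adjusted p = 0.323, 0.321 and 0.417. 0 of the 3 genes tested passed, where 4 of 10283 genes did (0.0389%), with 587 genes higher and 679 lower at an unadjusted p under 0.05, and DESeq2 called 36. All 3 had non-overlapping animals with RPC higher, as did 29.4% of all genes tested. Thinned shares of Fmo2 in stromal-like nuclei were 5.05, 19.1, 33.3 and 49.6%, and the club list summed to 24.5, 40.3, 123 and 48.5 CPM there.

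In club-like nuclei, where most of the genes were highest, 0 of the 8 tested passed and 0 of 7715 genes did (0%), with 462 higher and 474 lower where p under 0.05 is taken unadjusted, and DESeq2 called 75. Cyp2f2 had a log2 fold change of -1.28 ± 0.72 (adjusted p = 0.503), Cbr2 of -0.52 ± 0.97, Fmo2 of 0.66 ± 0.48, Cyp2b10 of 0.66 ± 1.24, Fmo1 of -0.65 ± 0.46, Abcc3 of -0.51 ± 0.41, and Aox3 and Aldh1a1 of 0.04. The genotypes overlapped for all 8 in the class. In the cluster of usual depth, Fmo2 was higher in both RPC animals (838, 649, 2308 and 2129 CPM), and 0 of the 9 passed in an edgeR fit with clusters of usual depth alone. RP1 gave only 19 nuclei and RPC1 was set by its deep cluster, and differences of the size of these standard errors were not detectable here.

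In alveolar type 2-like nuclei 0 of the 8 tested passed, where 8 of 11909 genes did (0.0672%), with 747 higher and 776 lower where p under 0.05 is taken unadjusted, and DESeq2 called 60. Fmo2 (83.5, 106, 198 and 163 CPM) had a log2 fold change of 0.82 ± 0.20 (adjusted p = 0.227) and Cyp2b10 of 0.75 ± 0.34 (adjusted p = 0.404). Cyp2f2 had -1.15 ± 0.34 (adjusted p = 0.279) and Cbr2 -0.81 ± 0.31 (adjusted p = 0.351). Both RPC animals were above both RP animals for 3 of the 8, where 28.5% of all genes were, and below them for 2, where 19.6% were. With usual-depth clusters alone the log2 fold change was 0.30 for Cbr2 and 3.13 ± 0.66 for Fmo2 (46.3, 31.4, 134 and 536 CPM, adjusted p = 0.0553). In alveolar type 1-like nuclei 0 of 2 tested passed and 0 of 4727 genes did (0%), with 224 higher and 239 lower where p under 0.05 is taken unadjusted, and DESeq2 called 11. The log2 fold change was 0.97 ± 0.51 for Fmo2 (23.7, 75.6, 157 and 94.7 CPM) and 0.24 ± 0.33 for Cyp2b10.

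**Figure D4:**
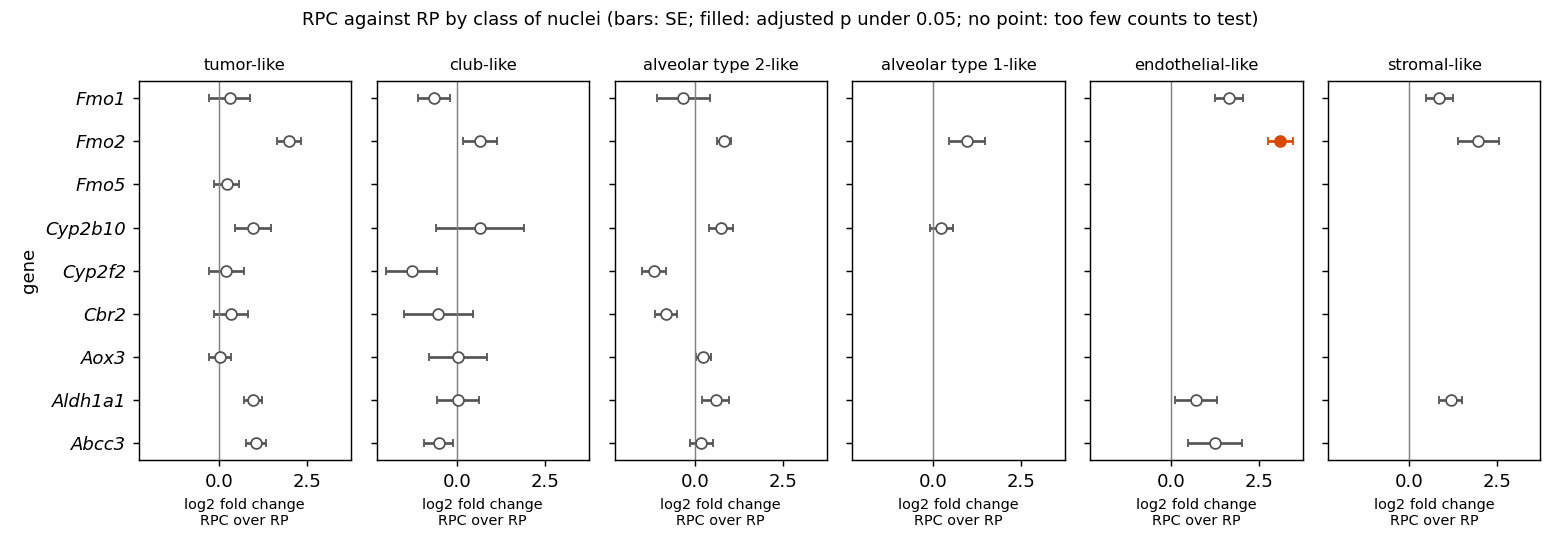
Log2 fold change of RPC over RP (edgeR, with bars for its standard error) for the genes tested in each of 6 classes, with filled points where the adjusted p was under 0.05. Fmo2 in endothelial-like nuclei (3.11) is the only filled point, and the bars of the club-like panel are the widest for Cyp2b10 (1.24) and Cbr2 (0.97).

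Whether the genotype difference itself differed between classes was tested as an interaction with tumor-like nuclei, with the animal kept in the fit. For endothelial-like against tumor-like nuclei 0 of the 9 genes passed, where 72 of 19061 did (0.378%). The Fmo2 difference was 1.17 ± 0.45 on the log2 scale (adjusted p = 0.620), so that its endothelial-like and tumor-like changes were not shown to differ. For stromal-like against tumor-like nuclei 0 passed, where 16 of 19525 did (0.0819%), and the Fmo2 difference was 0.01 ± 0.56. For alveolar type 2-like against tumor-like nuclei 2 of the 9 passed, where 91 of 19028 did (0.478%). These were Cbr2 (-1.07 ± 0.24, adjusted p = 0.00323) and Fmo2 (-1.04 ± 0.25, adjusted p = 0.0122), both by edgeR, and both calls were lost with DESeq2 (adjusted p = 0.635 and 0.197).

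Of the 98 pathway genes, 89 were not among the 9. None of them passed in any class. In tumor-like nuclei 72 were tested, with 8 higher and 4 lower in RPC at an unadjusted p under 0.05 and a median log2 fold change of 0.17. Cbr4, a mitochondrial carbonyl reductase, was at 5.97, 5.86, 13.4 and 11.1 CPM (log2 fold change 0.99, adjusted p = 0.273). Of the 16 P450 genes, reductase included, 11 were tested there, with a median of 0.60, both RPC animals higher for 6 and both lower for 1. Of all 20042 genes tested there, both RPC animals were higher for 5680 and both lower for 4468. Of the 16 aldehyde dehydrogenases 15 were tested, with a median of 0.37, both RPC animals higher for 6 and both lower for 2, where 28.3% of all genes had both higher. Of the 10 efflux transporters all were tested, with a median of -0.19. In endothelial-like nuclei 27 of the 89 were tested, with 4 higher and 0 lower at an unadjusted p under 0.05, where 566 of all 9588 genes tested were higher and 689 lower. Among these 4 were Por, the reductase that supplies electrons to P450 enzymes, at 125, 123, 319 and 220 CPM (log2 fold change 1.04, adjusted p = 0.163), Ephx1, microsomal epoxide hydrolase (2.08, adjusted p = 0.264), and Aldh2, the mitochondrial acetaldehyde dehydrogenase (1.30, adjusted p = 0.252). Ephx1 (6.56, 2.44, 23.6 and 13.8 CPM) reached the limit of the low-count filter in the RPC animals alone, which favored that direction.

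In stromal-like nuclei 34 of the 89 were tested, with 6 higher and 3 lower at an unadjusted p under 0.05. Aox1, a relative of Aox3, had a log2 fold change of 1.04 (adjusted p = 0.285). Aldh18a1, which makes a precursor of proline, had -1.16 (adjusted p = 0.335). In alveolar type 2-like nuclei 44 were tested, with 3 higher and 3 lower, among them the P450 gene Cyp2e1 (-2.42, adjusted p = 0.236) and Ahr, the aryl hydrocarbon receptor (-1.09, adjusted p = 0.313). Cyp2e1 (6.96, 6.03, 0.754 and 1.33 CPM) reached the limit of the low-count filter in the RP animals alone, which favored that direction. In club-like nuclei 31 were tested, with 1 higher and 1 lower: Aldh1a3, a relative of Aldh1a1, was at 0, 9.28, 54.2 and 33.7 CPM (2.41, adjusted p = 0.292), and Ahr had -0.95 (adjusted p = 0.338). Aldh1a3 reached the limit of the low-count filter in the RPC animals alone, which favored its direction. In alveolar type 1-like nuclei 12 were tested, and Cyp4b1, a lung P450, was at 71.1, 92.1, 229 and 199.8 CPM (1.24, adjusted p = 0.338).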

How the data were processed

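Nuclei of fresh-frozen lung tumors from 2 RP and 2 RPC mice were barcoded by split pooling and sequenced as 7 libraries, each of which pooled the 4 animals. Per the study's methods, the authors aligned reads to GRCm39 with the Parse pipeline and deposited 1 matrix of raw counts of deduplicated transcripts per animal, over whole genes, together with the well of each nucleus. The counts were used as deposited, and the animal, named in the labels, was the replicate.

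Following the authors' limits, nuclei were dropped below 300 counts, above 10% mitochondrial reads or above 12000 genes. Clusters were made with scanpy 1.11.5 (2000 variable genes without the pathway genes, 20 components, 20 neighbors, Leiden resolution 0.4, with a second pass at 1). A cluster was named where the median log2 ratio of a list's markers to all other nuclei was at least 1. At least 50% of the list, and at least 3 markers, had to be detected in 5% of nuclei. No other list could have more markers among the 10 leading genes. No doublet caller was applied. Leaving out nuclei above 4 times their animal's median, 3568 in all, was an alternative. Counts were summed per animal and class and tested with edgeR 4.0.16 (quasi-likelihood, TMM, filterByExpr, Benjamini-Hochberg, threshold 0.05, R 4.3.3), which was checked on simulated counts. Standard errors were taken from the F statistic, as the size of the log2 fold change over its root. DESeq2 1.42.0, which the authors used, was an alternative. The animals' deposited matrices held 32299909, 35420582, 72446861 and 57515082 transcripts. Shares of nuclei have exact 95% binomial intervals for counting error only. Positions are from GENCODE vM39, whose gene models may differ from those the counts were made on. Start regions were set at the start of the Ensembl canonical transcript in the same annotation.

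The genes, the pathway and marker lists and the tests were chosen with earlier results of these data known. Pathway genes were named with an unadjusted p under 0.05, an average log2 CPM of at least 3 and animals that did not overlap. At most the 5 highest and 5 lowest of a comparison were taken. Relatives of the same gene family were named with an unadjusted p under 0.05 and animals that did not overlap, at any level. Of both, some are given, beside the 3 genes nearest in profile to each of the 9. Alternatives were DESeq2, its size factors, no filter on low counts, the animal number as a block, each animal left out, 500 counts as minimum, resolution 0.8, and clustering with the pathway genes. Clusters of usual depth alone and a crossed block were added after seeing the data.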

Additional observations from a re-analysis of the deposited data

Results flagged for a closer look

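The difference between RPC and RP was not the same in alveolar type 2-like and tumor-like nuclei for 2 of the 9 genes, by edgeR's interaction term with the animal as a block. For Fmo2 the log2 fold change in alveolar type 2-like nuclei differed by -1.04 from that in tumor-like nuclei (83.5, 106, 198 and 163 CPM, against 1.66, 2.71, 9.74 and 8.42 CPM in tumor-like nuclei, adjusted p = 0.0122), and RPC was the higher genotype in both. For Cbr2 it differed by -1.07 (244, 212, 92.0 and 173 CPM, against 1.84, 3.63, 2.56 and 4.62 CPM, adjusted p = 0.00323).

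Neither call was firm. The Fmo2 call was lost without RP1 (adjusted p = 0.317), without RP2 (0.105) and without RPC1 (0.187), and the Cbr2 call without RP1 (1.0) and without RPC1 (0.100). DESeq2 gave 0.197 and 0.635. The lower Cbr2 in alveolar type 2-like nuclei of RPC was seen in the cluster of 294 deep nuclei, where Cbr2 was at 251, 179, 53.5 and 146 CPM, while in the cluster of 210 nuclei of usual depth it was at 201, 529, 249 and 786 CPM. In that cluster of usual depth Fmo2 had 3, 7, 35 and 101 counts. The Fmo2 log2 fold change there, given above, was larger than the one in tumor-like nuclei, opposite to the flagged difference. The interaction was not tested in clusters of usual depth.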

How the results depend on the processing

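Of the values for single genes, 145 kept direction and side of the threshold, 20 passed only under an alternative, 7 no longer passed and 3 reversed. For Cbr2 in alveolar type 2-like nuclei the log2 fold change turned to 0.052 with the pathway genes in the clustering, 0.23 without deep nuclei and 0.30 in clusters of usual depth, where fewer nuclei were summed. Fmo2 in endothelial-like nuclei passed under every alternative. The number of the 9 genes called was otherwise, in tumor-like nuclei, 2 with DESeq2. In club-like nuclei it was 1 with the pathway genes in the clustering (Fmo2), where 17 of 11633 genes were called. In alveolar type 2-like nuclei it was 1 with no filter (Cyp2f2). It was also 1 there without deep nuclei (Fmo2), where 18 of 6118 genes were called. In endothelial-like and in stromal-like nuclei it was 2 with no filter. For alveolar type 2-like minus tumor-like it was 0 with DESeq2. The number also moved in these classes when an animal was left out. Those fits leave 1 animal in a genotype, and their calls are not counted here. The cause was not tested. With 1 animal in a genotype, that animal is assumed to vary like the others.

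The animal numbers were not shown to pair the animals (r of deviations -0.12 to 0.12). With the number as a replicate block 2 of the 9 were called in endothelial-like nuclei (Fmo1 with adjusted p = 0.0122, and Fmo2), and 325 genes in all against 10, with 55 against 8 in alveolar type 2-like and 7 against 4 in stromal-like nuclei. It changed no other call of the 9. With the pairing crossed, 200 genes were called in club-like nuclei, 1 of the 9 among them (Cyp2f2), 177 in endothelial-like, 2 of the 9 among them, and 2 in alveolar type 1-like nuclei.

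Genes called in all also moved with no filter, to 50, 351, 392, 71, 346 and 388 in tumor-like, club-like, alveolar type 2-like, alveolar type 1-like, endothelial-like and stromal-like nuclei, and with DESeq2 to 649, 75, 60, 11, 37 and 36. With no filter the median log2 fold change over all genes in club-like nuclei was 0.22. Mean shares of club-like nuclei depended on depth. Thinned, they were 8.69, 53.3, 0.896, 8.76, 34.8, 34.6, 7.54 and 9.55% for Fmo1, Fmo2, Fmo5, Cyp2b10, Cyp2f2, Aox3, Aldh1a1 and Abcc3, and without thinning 28.6, 80.2, 3.81, 18.8, 67.0, 62.7, 23.6 and 37.5%. Thinned to 2000 transcripts, Fmo1 was at 14.8%, Cyp2f2 at 49.5%, Aldh1a1 at 13.6% and Abcc3 at 24.4%.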
